A study of Gallus gallus with 6 samples.

Results

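The chicken miRNAs whose miRBase numbers run from 1000 to just under 2000 made up 181 of the 565 mature miRNAs counted in hen liver (32.0%). They were chosen by name alone, as every listed miRNA with a number in this range and any letter or arm suffix, and the other listed miRNAs were 230 with numbers below 1000 or named let-7 and 154 with numbers of 2000 and above. All 6 libraries came from liver of female Lushi green-shell chickens kept in cages with free access to feed and water, 1 library per hen. Small RNA was sequenced from 3 hens at 20 weeks (L20, labelled juvenile) and from 3 other hens at 30 weeks (L30, labelled egg-laying). No other treatment separated the ages. The study itself calls the 20-week stage pre-laying and states that hens of both ages were sexually mature. Age and laying state cannot be told apart in this design.

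A miRNA is a short RNA that is cut out of a hairpin precursor and guides the silencing of messenger RNAs that it pairs with. Either strand of the hairpin, the 5p or the 3p arm, can be kept as the mature form, and hairpins that lie inside a longer gene are often cut from the transcript of that gene. MiRBase gives numbers in order of discovery rather than by function or descent, so that the broadly conserved miRNAs, which were found early, mostly have low numbers, and many of the chicken entries from 1000 to just under 2000 were added from the sequencing of chicken small RNA. The range still holds conserved miRNAs, such as miR-1306, which lies within the microprocessor gene DGCR8 in human too. Whether each member is found in birds alone was not tested, since no sequences and no other species were used here.

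The 181 members belonged to 150 hairpin names. An arm was given for 46 members named 5p and 41 named 3p, 94 had no arm in their name, and 31 hairpins were listed with both arms. In the RefSeq annotation of the chicken assembly GRCg7b, 138 of the 150 hairpin names matched 1 gene, and 113 of these (81.9%) lay within the span of a protein-coding gene, against 174 of 234 matched hairpin names (74.4%) among the other listed miRNAs. This comparison uses positions only, as the annotation table used here gives no strand. The most abundant hairpins lay within varied genes. MiR-1662 lay within VIPR1, a receptor for vasoactive intestinal peptide, miR-1559 within ITGAV, the integrin alpha-V subunit, and miR-1454 within RPS12, a protein of the small ribosomal subunit. MiR-1451 lay within RNGTT, the mRNA capping enzyme, miR-1456 within LYRM7, an assembly factor of mitochondrial complex III, miR-1552 within the kinase gene MAP4K4, miR-1736 within CARS2, the mitochondrial cysteinyl-tRNA synthetase, and miR-1729 within the septin gene SEPTIN5. MiR-1563 was matched to a gene that RefSeq names SNORD69, the name of a small nucleolar RNA, within GNL3. Its reads cannot be told apart here from fragments of that RNA.

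Between 7135289 and 14822854 reads were counted on listed miRNAs in the L20 libraries and between 3864984 and 8804077 in the L30 libraries. Of the clean reads, 54.3% ± 4.64 were counted in the L20 libraries and 32.1% ± 13.5 in the L30 libraries (mean ± SD, n = 3 each), with no overlap between the ages and the lowest share, 18.2%, in L30-3. TPM, here reads per 1000000 clean reads, therefore gives lower values to most miRNAs in L30. RPM, here reads per 1000000 counted reads, does not carry this difference. RPM is a share, however, so that a fall of abundant miRNAs raises the RPM of the others, and the part of this was not tested. Both measures are given where they disagree. In TPM, the summed level of the hepatocyte markers, both arms of miR-122, was 50943 to 71220 in L20 and 12896 to 38273 in L30, whereas in RPM it was 89729 to 127578 and 70981 to 94660.0, which overlapped. By both measures the summed levels were lower in every L30 library than in every L20 library for the red cell, leukocyte and endothelial markers. They were 1597 to 3182 TPM in L20 against 288 to 1197 TPM in L30 for the 3 red cell markers. For the 4 leukocyte markers they were 4627 to 6736 against 943 to 3664 TPM. For both endothelial markers they were 28732 to 42751 against 6458 to 14792 TPM. Most of the red cell sum was miR-451 (mean 1520 TPM), and most of the leukocyte sum was miR-142-5p (mean 3668 TPM). The 6 striated muscle markers analysed, of 7, overlapped between the ages at 16.0 to 35.6 against 5.97 to 16.8 TPM, and so did the 4 epithelial markers analysed, of 5, at 702 to 853 against 251 to 721 TPM, and both lists overlapped in RPM too. The part of these cell types in the results was not tested, and in whole liver fewer cells of a type and less RNA per cell cannot be told apart. The study's methods describe amplification by PCR and mention no molecular identifiers, and none were used in the counts here. All intervals and detection limits therefore cover counting error only, and the spread between hens is also the spread between libraries.

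The members were numerous and rare. Together they held 205997 reads, and the median member had 8 reads over all 6 libraries, whereas the median of the other listed miRNAs was 65.5. A read in every library was found for 50 members (27.6%) and for 213 of the other miRNAs (55.5%). Fewer than 10 reads in all were counted for 98 members (54.1%), of which 35 had 1 read, and for 117 of the others (30.5%). At the upper end, 51 members had 10 to 99 reads, 20 had at least 100 but under 1000, and 12 had 1000 or more.

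The members took 0.456%, 0.301% and 0.409% of the counted reads in the libraries of L20 hens 1, 2 and 3, and 0.419%, 0.496% and 0.506% in those of L30 hens 1, 2 and 3. L20-2 was the lowest library, and L20-1 lay above L30-1, so that the ages overlapped. The 95% Wilson interval was widest in L30-3, at 0.499% to 0.513%, and hens of the same age differed beyond these intervals, with the exception of L30-2 and L30-3, whose intervals overlapped. On average L20 libraries gave 0.389% ± 0.0797 and L30 libraries 0.474% ± 0.0478 (SD, n = 3 each). The exact two-sided permutation test of this difference gave p = 0.2, where 3 libraries against 3 cannot give less than 0.1. As a share of clean reads the order of the means turned, with 0.211% ± 0.0491 at L20 against 0.148% ± 0.0503 at L30 (SD, n = 3 each, exact permutation test, p = 0.2).

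A single miRNA, miR-1662, supplied 73.2% of the members' reads, the top 3 supplied 86.6% and the top 12 supplied 95.8%. MiR-1662 took 76.6%, 70.5% and 75.2% of the members' reads in the L20 libraries and 67.6%, 75.0% and 75.4% in the L30 libraries, so that it led in every hen. By mean TPM it ranked 30th of all 565 miRNAs, the next member, miR-1559-5p, ranked 75th, and 4 members were among the top 100. Without miR-1662, the members took 0.107%, 0.0887% and 0.101% of counted reads in the L20 libraries and 0.136%, 0.124% and 0.124% in the L30 libraries. All L30 libraries were then above all L20 libraries (0.0989% ± 0.00923 against 0.128% ± 0.00655, SD, n = 3 each, p = 0.1 in the exact two-sided permutation test, the least that this design can give). The summed TPM of the same members did not keep this order, at 537 ± 70.7 in L20 and 416 ± 192 in L30 (SD, n = 3 each, exact permutation test, p = 0.4).

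**Figure D1:**
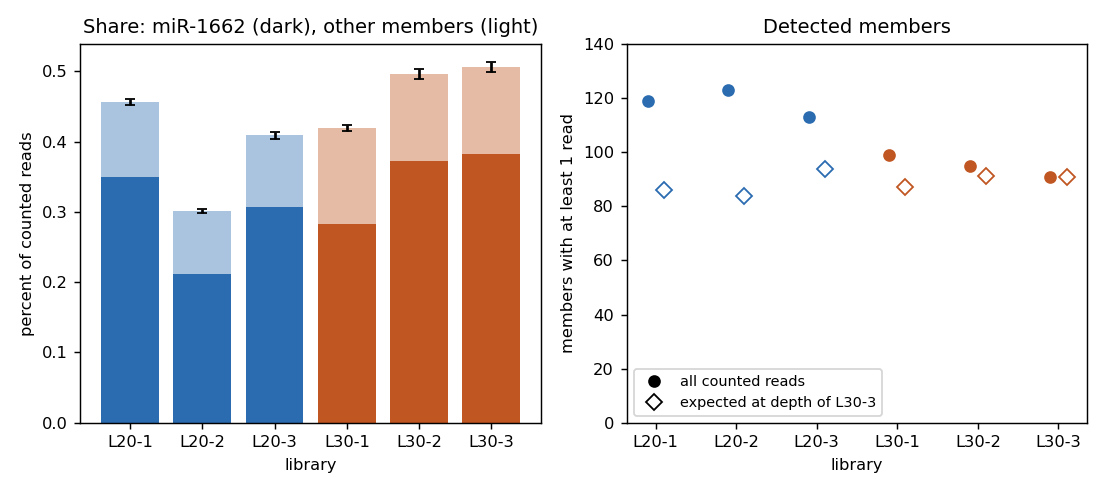
The left panel plots the percent of counted reads taken by members in each library (bars from 0, miR-1662 dark and the other members light, error bars the 95% Wilson interval of the total), which overlapped between L20 and L30. The right panel plots the number of members with at least 1 read (filled) and the number expected at the counted reads of L30-3 (open), where the ages were apart at 113 to 123 members in L20 and 91 to 99 in L30, and overlapped once the number of counted reads was the same.

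At least 1 read was found for 119, 123 and 113 members in the L20 libraries and for 99, 95 and 91 in the L30 libraries. Every L20 library was above every L30 library, with means of 118 ± 5.03 and 95.0 ± 4.0 (SD over 3 libraries at each age, p = 0.1 in the exact two-sided permutation test, the least that this design can give). In a random draw of as many counted reads as L30-3 held, 86.1, 84.0 and 93.6 members were expected in the L20 libraries and 87.2, 91.0 and 91 in the L30 libraries, with means of 87.9 ± 5.07 and 89.7 ± 2.23 that overlapped (exact permutation test, p = 0.6). This draw makes the counted reads equal, but not the clean reads or the counted share of them. A minimum of 3 reads left 73, 73 and 65 members in L20 and 78, 56 and 50 in L30, which overlapped because L30-1 had the most. L30-1 also had 9 members with 1 read, whereas the other 5 libraries had 28 to 33.

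Reads at both ages were found for 116 members, 45 were seen in L20 alone and 20 in L30 alone. L20 libraries had more counted reads on average (1.12e+07 against 5.71e+06) and more of all listed miRNAs with a read (425 against 373). The part of depth in this split was not tested, and the split was not counted for the other miRNAs. The members seen at 1 age were all rare, with at most 30 reads in L20 and at most 7 in L30, and none passed the filter for a test. MiR-1619 had 8, 16 and 6 reads in the L20 libraries and 0 in each L30 library. Its pooled reads were 8.84 times the limit of 3 counts over the pooled L30 libraries per clean read, and 5.08 times per counted read. MiR-1734 had 1, 10 and 7 reads in L20, which were 5.31 and 3.05 times the same limits. In the opposite direction, miR-1710 had 0, 4 and 3 reads in the L30 libraries. These were 2.64 times the limit of 3 counts over the pooled L20 libraries per clean read and 4.59 times per counted read. The 5 reads of miR-1628 all came from L30-1, so no ratio between the ages is given for it. The ratios of the other members named here cover neither the counting error of their pooled reads nor the spread between hens. These members were also chosen for 0 reads at 1 age and the most reads at the other, which favours high ratios. A limit of 3 counts in a library corresponds to 0.113 to 0.223 TPM. It is a chosen limit, and members with fewer reads in a library were still counted as detected there.

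Only 41 members (22.7%) passed the filter on low counts and were tested between the ages, against 195 of the other miRNAs (50.8%). The other 140 members had too few reads, or reads in too few libraries, for a test. EdgeR's quasi-likelihood test, with clean reads as library sizes, called 2 of these 41 members lower in L30 and 0 higher, where a call is an adjusted p of at most 0.05. Over all 236 tested miRNAs the same test called 24.6% lower and 0% higher. Before adjustment, p was at most 0.05 for 5 lower members and 1 higher member, beside 37.3% and 1.69% of all tested miRNAs, and limma called 5 lower and 0 higher, beside 33.1% and 0% of all. With the replicate number as a block, edgeR called 5 members lower and 0 higher, beside 37.3% and 0.847% of all (38.1% in either direction). The log2 fold changes of the tested members ran from -1.95 to 1.33 with a median of -0.45, whereas the median of all 236 was -0.86. A value below 0 was found for 29 members (70.7%) and for 80.1% of all tested miRNAs.

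The count of called members moved with the scaling and with the hens. With the summed miRNA counts as library sizes the median of all tested miRNAs shifted to -0.10 and that of the members to 0.26, and edgeR called 1 member lower and 5 higher, beside 16.1% and 12.3% of all. TMM factors gave 3 lower and 4 higher, beside 23.3% and 8.9% of all, with medians of -0.28 for all and 0.08 for the members. Upper quartile factors gave 0 lower and 7 higher, beside 10.6% and 17.4% of all, with medians of 0.12 and 0.45. Before adjustment, p was at most 0.05 with upper quartile factors for 2 lower members and 11 higher ones, beside 16.9% and 25% of all. DESeq2 called 2 lower and 8 higher, beside 20.3% and 17.8% of all (38.1% in either direction). The median of the members thus lay above the median of all tested miRNAs under clean reads, summed counts, TMM and upper quartile factors. These scalings shift all log2 fold changes by nearly the same amount, so the similar step under each is not separate evidence. Leaving out L20-1, L20-2, L20-3 or L30-2 left 0 called members in edgeR, and the calls over all 236 miRNAs fell as well, to 7.63%, 3.81%, 14% and 2.54%. Before adjustment, 5, 2, 4 and 6 members were lower with a p of at most 0.05 in these fits, beside 26.3%, 23.3%, 31.4% and 27.1% of all. Leaving out L30-1 gave 6 called members, all lower, beside 43.2% of all, and leaving out L30-3 gave 2, also lower, beside 20.3%.

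**Figure D2:**
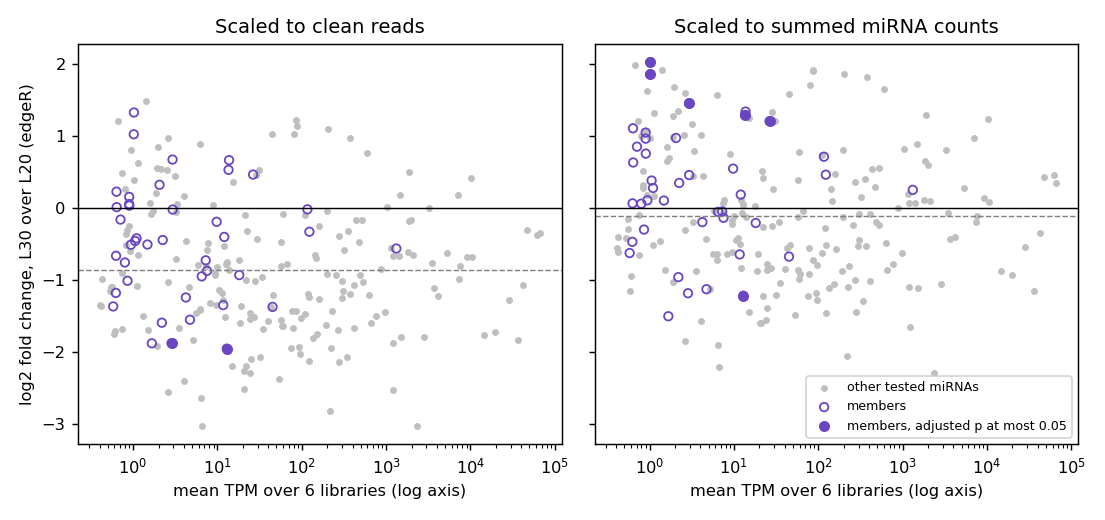
Each point is 1 of 236 tested miRNAs, with the mean TPM over 6 libraries on a log axis and edgeR's log2 fold change of L30 over L20, scaled to clean reads (left) or to summed miRNA counts (right), members in purple, filled where the adjusted p was at most 0.05. The dashed line is the median of all tested miRNAs, at -0.86 on the left and -0.10 on the right, and the called members changed from 2 lower to 1 lower and 5 higher between the scalings.

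MiR-1729-5p was the most changed of the called members. Its level was 14.6, 26.7 and 20.2 TPM in the L20 libraries and 6.24, 7.29 and 2.44 TPM in the L30 libraries, from 297, 708 and 294 reads and 122, 98 and 52 reads. All L30 libraries were below all L20 libraries, and the same held in RPM, at 25.2, 47.8 and 41.2 against 13.9, 21.95 and 13.5. The log2 fold change was -1.95 ± 0.62 (SE) with an adjusted p of 0.0122 in edgeR, which put it below the median of all tested miRNAs under clean reads. It was -1.21 with summed counts (adjusted p = 0.0282) and -1.004 with upper quartile factors (adjusted p = 0.0649), so the direction was kept and the call was lost in the latter. Its call was also lost without L20-1, L20-2, L20-3 or L30-2, with adjusted p values of 0.0538, 0.151, 0.0658 and 0.0803.

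The other arm of the same hairpin, miR-1729-3p, was at 12.1, 20.8 and 17.5 TPM in L20 and at 9.61, 7.06 and 3.15 TPM in L30. The ages were apart in TPM, but they overlapped in RPM, where L20-1 (20.9) was below L30-1 (21.4) and L30-2 (21.3). Its log2 fold change of -1.34 ± 0.61 (SE) did not pass the test (edgeR, adjusted p = 0.0814). It did pass with the replicate block (-1.45, edgeR, adjusted p = 0.0379), without L30-1 (-1.72, edgeR, adjusted p = 0.0268) and in limma (-1.30, adjusted p = 0.0402). It passed too in Fisher's exact test on pooled counts, which leaves out the spread between hens and called 86.9% of all tested miRNAs. Both arms of miR-1729 were lower in L30 under every scaling tried.

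MiR-1329-5p, within ATP6V1C2, a subunit gene of the proton-pumping vacuolar ATPase, was the other called member and a rare one. It had 71, 100 and 90 reads in the L20 libraries and 33, 19 and 12 in the L30 libraries, which are 3.50, 3.77 and 6.19 TPM against 1.69, 1.41 and 0.564 TPM. The ages did not overlap, in TPM or in RPM, and L20-3 was the highest library. The log2 fold change was -1.87 ± 0.65 (SE) in edgeR (adjusted p = 0.0221), and it stayed negative in every alternative. The call was lost with summed counts (-1.18, adjusted p = 0.0588), with upper quartile factors (-0.96, adjusted p = 0.110), with DESeq2 size factors (adjusted p = 0.0601), with DESeq2 (adjusted p = 0.0756), without a filter on low counts (adjusted p = 0.0826), and without L20-1, L20-2, L20-3 or L30-2 (adjusted p = 0.0662, 0.0910, 0.165 and 0.0926).

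MiR-1451-5p was the 4th member by mean TPM and steady within L20, at 62.1, 67.0 and 65.3 TPM. The L30 libraries held 35.9, 28.3 and 11.1 TPM, all below L20, and the same order was seen in RPM (107, 120.0 and 133 against 79.8, 85.1 and 61.1). Mean TPM was 64.8 ± 2.51 at L20 against 25.1 ± 12.7 at L30 (SD, n = 3 each). In edgeR the log2 fold change of -1.37 ± 0.56 (SE) missed the threshold (adjusted p = 0.0536), and it passed with the replicate block (-1.52, adjusted p = 0.0137), with raw reads (-1.44, adjusted p = 0.0344), with TMM factors (-0.85, adjusted p = 0.0249) and without L30-1 (-1.72, adjusted p = 0.0171). It also passed in limma (adjusted p = 0.0320) and in DESeq2 (adjusted p = 0.0437). It passed too in Fisher's exact test on pooled counts, which leaves out the spread between hens and called 86.9% of all tested miRNAs. With summed counts (adjusted p = 0.0527), upper quartile factors (adjusted p = 0.198), DESeq2 size factors in edgeR (adjusted p = 0.0573), both other filters (adjusted p = 0.106 and 0.0559) and each other library left out (adjusted p = 0.0522 to 0.234) it did not pass, and no alternative turned the direction.

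MiR-1805-3p was called with the replicate block, where edgeR gave -2.67 on the log2 scale (adjusted p = 0.00562), and not without it, where the adjusted p was 0.595. Its reads were 307, 65 and 52 in L20 and 129, 8 and 0 in L30, so that L20-1 and L30-1 were the high libraries of their ages and the ages overlapped.

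The 3 most abundant members did not pass the test with clean reads, and their direction depended on the scaling. MiR-1662 was at 2026, 1183 and 1509 TPM in the L20 libraries and at 1275, 1235 and 693.5 TPM in the L30 libraries, where L20-2 was below L30-1 and L30-2. Its log2 fold change was -0.56 ± 0.47 (SE) with clean reads (edgeR, adjusted p = 0.370) and 0.26 with summed counts (adjusted p = 0.430), and in RPM the libraries held 3495, 2120 and 3075 against 2833, 3721 and 3817. MiR-1559-5p was at 178, 111 and 122 TPM in L20 and 140, 121 and 66.2 TPM in L30, and its log2 fold change was -0.33 ± 0.55 (SE) with clean reads and 0.47 with summed counts (edgeR, adjusted p = 0.662 and 0.162). In RPM, its L30 libraries (311, 365 and 364) lay just above its L20 libraries (307, 198 and 248). MiR-1454 was at 144, 103 and 105 TPM in L20 and 189, 94.2 and 64.9 TPM in L30, a wide spread between the L30 hens around almost equal means of 117 and 116 TPM. Its log2 fold change of -0.01 with clean reads (edgeR, adjusted p = 0.987) became 0.72 with summed counts (adjusted p = 0.0527) and 0.94 with upper quartile factors (adjusted p = 0.0167). DESeq2 called miR-1559-5p (0.56, adjusted p = 0.0477) and miR-1454 (0.80, adjusted p = 0.00242) higher in L30, and did not call miR-1662 (0.36, adjusted p = 0.312).

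**Figure D3:**
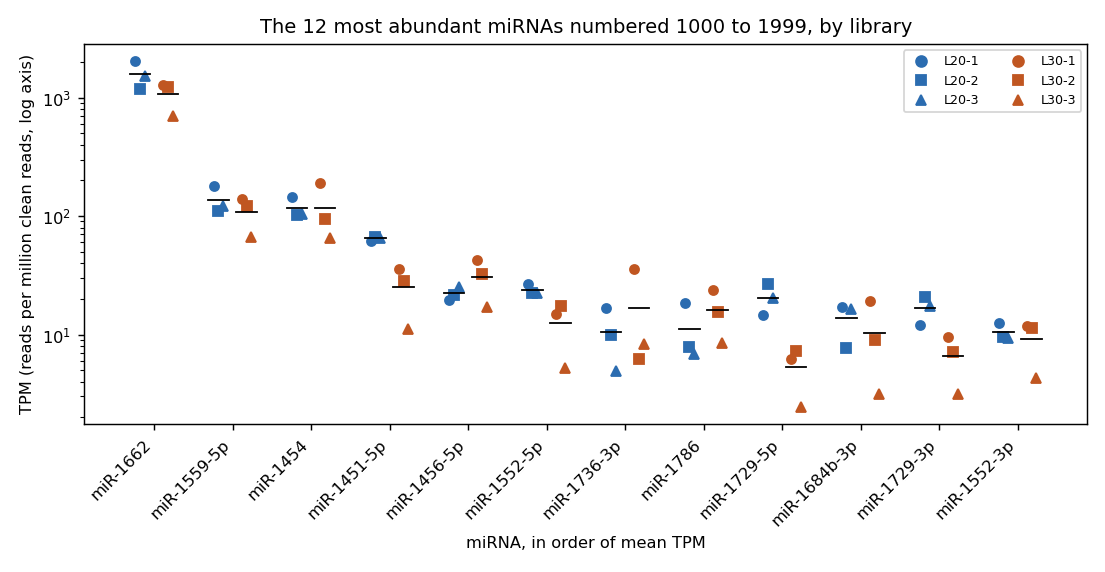
TPM (reads per 1000000 clean reads, log axis) of the 12 most abundant members in each library, L20 in blue and L30 in orange, with a line at the mean of each age. The L30 libraries lay below the L20 libraries for miR-1451-5p, miR-1552-5p, miR-1729-5p and miR-1729-3p in TPM, and overlapped them for the other 8, whereas in RPM miR-1552-5p and miR-1729-3p overlapped and miR-1559-5p, miR-1454, miR-1456-5p, miR-1786 and miR-1552-3p were higher in every L30 library than in every L20 library.

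Of the 12 most abundant members, miR-1559-5p, miR-1454, miR-1456-5p, miR-1786 and miR-1552-3p had all L30 libraries above all L20 libraries in RPM, and edgeR with summed counts called miR-1456-5p and miR-1786 among them. MiR-1456-5p held 33.8, 38.9 and 51.4 RPM in L20 and 94.2, 97.9 and 94.7 in L30, with almost no spread between the L30 hens. In TPM these were 19.6, 21.7 and 25.2 against 42.4, 32.5 and 17.2, which overlapped because L30-3 was below the L20 libraries. Its log2 fold change was 0.47 ± 0.57 (SE) with clean reads (edgeR, adjusted p = 0.561) and 1.21 with summed counts (adjusted p = 0.00809). MiR-1786 held 31.8, 14.2 and 13.9 RPM in L20 and 53.0, 47.0 and 46.8 in L30, with L20-1 as the L20 library nearest to L30. Its TPM of 18.4, 7.91 and 6.81 against 23.9, 15.6 and 8.51 overlapped, and its log2 fold change was 0.53 ± 0.59 (SE) with clean reads (edgeR, adjusted p = 0.519) and 1.29 with summed counts (adjusted p = 0.0288). Both were above 0 under every scaling tried, and neither was called with clean reads.

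With summed counts, edgeR also called 3 rarer members higher in L30, which are named here after their values were seen. MiR-1731-5p, within the transcription factor gene KLF15, held 4.25, 4.25 and 3.92 RPM in L20 and 10.9, 11.2 and 12.2 in L30, a log2 fold change of 1.46 (adjusted p = 0.00951) that was 0.68 with clean reads (adjusted p = 0.415). MiR-1563 had 14, 20 and 8 reads in L20 and 32, 20 and 21 in L30. It was the only tested member whose L30 libraries all lay above the L20 libraries in TPM too, at 0.690, 0.753 and 0.550 against 1.64, 1.49 and 0.987. The log2 fold change of miR-1563 was 1.86 with summed counts (adjusted p = 0.0100) and 1.03 with clean reads (adjusted p = 0.241). MiR-1703-5p rested on L30-1, with 61 reads there and 5 and 19 in the other L30 libraries, against 16, 11 and 8 in L20. It was called at 2.03 with summed counts (edgeR, adjusted p = 0.0474), but its ages overlapped.

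In TPM, 9 of the 41 tested members had all L30 libraries below all L20 libraries and 1 had them all above, where 46.2% and 2.54% of all tested miRNAs did. In RPM, 3 members were apart in the lower direction and 9 in the higher, where 27.5% and 19.5% of all did. The 3 lower ones were miR-1451-5p, miR-1729-5p and miR-1329-5p, which were apart by both measures.

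Of the remaining abundant members, miR-1552-5p was at 26.6, 22.4 and 22.3 TPM in L20 and 14.9, 17.4 and 5.17 TPM in L30, apart in TPM and overlapping in RPM. A log2 fold change of -0.93 ± 0.59 (SE) did not pass the test (edgeR, adjusted p = 0.236). MiR-1736-3p varied widely, at 16.9, 9.94 and 4.95 TPM in L20 and 36.0, 6.17 and 8.37 TPM in L30. Its log2 fold change of 0.67 (edgeR, adjusted p = 0.398) became -0.54 without L30-1. It was called higher with upper quartile factors (1.53, edgeR, adjusted p = 0.0447), in DESeq2 (1.43, adjusted p = 0.0206) and in Fisher's exact test on pooled counts. MiR-1684b-3p was at 17.1, 7.68 and 16.3 TPM in L20 and 19.1, 8.92 and 3.15 TPM in L30, and its log2 fold change of -0.40 (edgeR, adjusted p = 0.616) was 0.19 with summed counts. The authors' alignment allowed up to 2 mismatches, so that its reads and those of miR-1684a-3p, which is close to it in name, could have been counted for each other. By contrast miR-1781-3p, within IQCE, kept a constant share of the counted reads, with 16.7, 17.5 and 19.8 RPM in L20 and 17.0, 16.4 and 15.8 in L30. Its highest library was 1.25 times its lowest by this measure and 3.40 times by TPM.

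Among member hairpins, 3 had at least 10 reads on each arm in every library, and in all of them the 5p arm lost ground to the 3p arm in L30. For miR-1451, the libraries held 6.96, 7.84 and 6.79 reads of the 5p arm for each read of the 3p arm in L20 and 4.63, 4.32 and 5.24 in L30. The log2 ratio was 2.84 ± 0.11 in L20 and 2.23 ± 0.14 in L30 (SD, n = 3 each), a difference of -0.61. For miR-1552 the ratio was 2.14, 2.37 and 2.38 in L20 and 1.26, 1.54 and 1.20 in L30, a log2 difference of -0.79. For miR-1729 it was 1.21, 1.28 and 1.16 in L20 and 0.649, 1.03 and 0.776 in L30, a log2 difference of -0.59, so that the 3p arm had more reads than the 5p arm in L30-1 and L30-3. In each hairpin the ages did not overlap (p = 0.1 each in the exact two-sided permutation test, 0.1 after adjustment over the 3 hairpins, the least that this design can give). Such separation was common, since 31.2% of the 48 hairpins of the whole table that met the same minimum were apart in the lower direction and 35.4% in the higher, with a median log2 difference of 0.21 over the 48. A ratio of 2 arms within a library does not depend on the scaling.

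**Figure D4:**
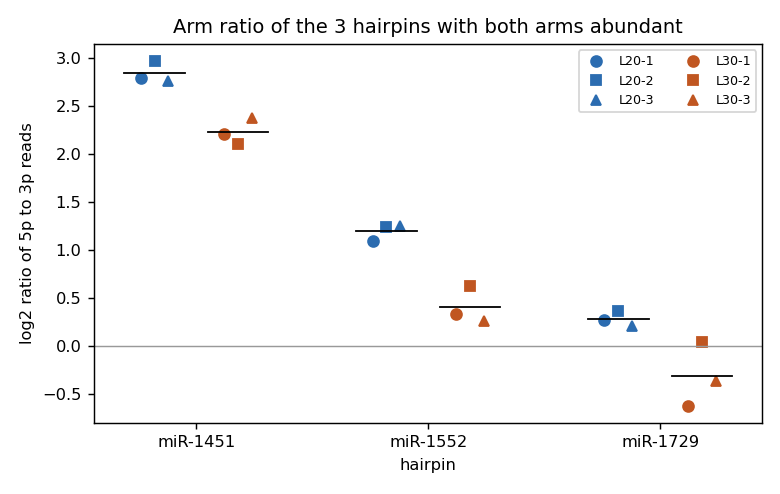
Log2 ratio of 5p to 3p reads in each library (L20 blue, L30 orange, lines at the means) for the 3 member hairpins with at least 10 reads on each arm in every library. The ratio was lower in every L30 library than in every L20 library, by -0.61 for miR-1451, -0.79 for miR-1552 and -0.59 for miR-1729 on the log2 scale.

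The other hairpins with both arms listed were too rare on an arm for this comparison. Over all libraries, 18 hairpins had both arms listed and at least 100 reads in sum, and 12 of them had more 5p reads and 6 more 3p reads. The arms were most unequal in miR-1559, with 14100 reads on the 5p arm and 75 on the 3p arm, and miR-1456, with 2974 and 28. MiR-1736 leaned the other way, with 23 reads on the 5p arm and 1644 on the 3p arm, and miR-1729 was near balance, with 1571 and 1401.

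Several members differed widely between libraries. The criterion for these was chosen after the values were seen, and it compared any libraries, of the same age or not. It therefore does not set the spread between hens against the difference between ages. Among miRNAs with at least 20 reads in a library, 13 of 44 members (29.5%) had at most 3 reads in another library, and 18 of 198 other miRNAs (9.09%) did. The members were rarer than the others, and the part of their low counts in this was not tested. A difference of at least 20 times in RPM was found for 5 of the 44 members (11.4%) and 6 of the 198 others (3.03%). MiR-1744-3p, within the semaphorin gene SEMA6D, had 140, 282 and 3 reads in L20 and 7, 67 and 48 in L30, which is 45.2 times more by RPM in L20-2 than in L20-3. MiR-1618-5p had 0, 93 and 64 reads in L20 and 41, 0 and 0 in L30, and miR-1684a-3p had 28, 0 and 0 in L20 and 0, 0 and 41 in L30. As said above, reads of miR-1684a-3p and miR-1684b-3p could have been counted for each other. MiR-1582 had 4, 3 and 3 reads in L20 and 4, 23 and 1 in L30. High and low libraries stood in both ages for miR-1744-3p, miR-1618-5p and miR-1684a-3p.

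**Figure D5:**
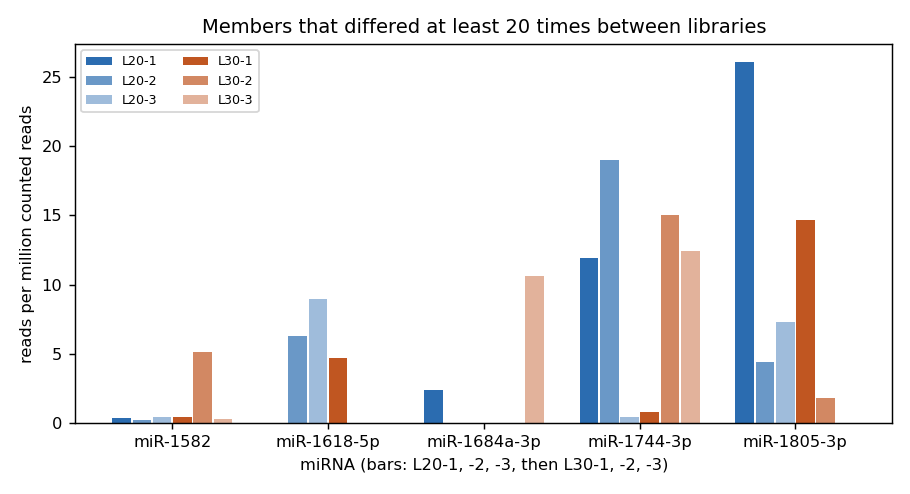
RPM (reads per 1000000 counted reads) in each library (bars from 0, the L20 hens in blue and the L30 hens in orange) for the 5 members that differed at least 20 times between libraries. High and low bars stand side by side within an age, as for miR-1744-3p with 282 reads in L20-2 and 3 in L20-3. Reads of miR-1684a-3p and miR-1684b-3p could have been counted for each other.

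The TPM pattern of miR-1662 over the 6 libraries was most like those of miR-3525, miR-33-5p and miR-100-3p among 165 miRNAs outside the range that were compared (Pearson correlation of log2(TPM + 1), 0.95, 0.94 and 0.93). The 6 points share the fall of the counted share in L30, and in RPM the same correlations were 0.69, -0.15 and 0.68.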

How the data were processed

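According to the study's methods, the authors cleaned the reads with the Fastx toolkit and aligned them to miRBase with CLC Genomics Workbench, allowing up to 2 mismatches and ends shortened or extended by up to 2 bases. The authors deposited the read count of each of 565 miRNAs in each library and a TPM value that equals the count scaled to the raw reads. Counts were tested, and the TPM used here is the count per 1000000 of the clean reads that the study gives. The labels and the methods name different sequencers. All sample columns were mapped by name, and 0 were left out.

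Ages were compared with edgeR 4.0.16 (robust glmQLFit, glmQLFTest) in R 4.3.3, with clean reads as library sizes and filterByExpr at its defaults (minimum count 10, minimum total 15), and p values were adjusted by Benjamini and Hochberg over all 236 tested miRNAs. Single values were compared by exact permutation over 20 regroupings. Alternatives used raw reads or summed counts as library size, TMM, upper quartile or DESeq2 size factors, Fisher's exact test on counts pooled by age, limma 3.58.1 on log2(TPM + 1), DESeq2 1.42.0, other filters, each library left out in turn (over the same 236 miRNAs) and the replicate number as a block. Fisher's exact test on pooled counts leaves out the spread between hens. Libraries with the same replicate number came from different hens. Their deviations from the means of their ages correlated at 0.119, 0.171 and 0.188, against -0.134 to -0.0173 for different numbers. Such deviations sum to 0 within an age, so negative values for different numbers follow from positive ones for the same number. The contrast therefore does not show a pairing, and blocked values are given only as an alternative where they changed a call. The scripts were tested on simulated counts.

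The members, gene lists and tests were chosen with earlier results of these data known. Members named one by one were the 12 with the highest mean TPM, those called, those the study names and both arms of the 3 hairpins with at least 10 reads on each arm in every library, with up to 2 members seen at 1 age alone per age. The others named were chosen after their values were seen. For the likeness of patterns, the 3 miRNAs outside the range with the highest correlation were named. No sequences are printed, and gene names of hairpins come from RefSeq, assembly GRCg7b. Plots used Python 3.11.15 with matplotlib 3.10.9.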

Additional observations from a re-analysis of the deposited data

How the results depend on the processing

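With 3 hens an age no single permutation test can fall below 0.1, and separate hens are the only replicates. The number of called members was 2 with clean reads, and it became 4 with raw reads, 6 with summed counts, 7 each with TMM, upper quartile and DESeq2 size factors in edgeR, 10 with DESeq2, 5 with limma, 28 with Fisher's exact test on pooled counts (22 lower, 6 higher) and 5 with the replicate block, and it ran from 0 to 6 with a library left out. It was 3 without a filter, where all 181 members were fitted. These included miR-1729-5p (edgeR, adjusted p = 0.0182) but not miR-1329-5p (edgeR, adjusted p = 0.0826). It was 2 with at least 10 counts in every library, the same 2 as with clean reads. The percent called over all tested miRNAs moved too: it was 24.6 with clean reads, 31.8 with raw reads, 28.4 with summed counts, 32.2, 28 and 30.1 with TMM, upper quartile and DESeq2 size factors in edgeR, 38.1 with DESeq2, 33.1 with limma, 86.9 with Fisher's exact test (68.3 of the members), 38.1 with the block, 8.5 without a filter and 33 with at least 10 counts. The causes were not tested.

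Several log2 fold changes that were negative with clean reads became positive with summed counts, TMM, upper quartile factors, DESeq2 size factors in edgeR and DESeq2, in this order: 0.26, 0.078, 0.53, 0.27 and 0.36 for miR-1662, 0.47, 0.29, 0.73, 0.48 and 0.56 for miR-1559-5p, 0.72, 0.55, 0.94, 0.73 and 0.80 for miR-1454, 0.19, 0.027, 0.40, 0.20 and 0.27 for miR-1684b-3p, and 0.55, 0.37, 0.79, 0.56 and 0.64 for miR-1552-3p. MiR-1552-5p turned to 0.037 with upper quartile factors, and miR-1451-3p to 0.17 with upper quartile factors and 0.044 with DESeq2. With a library left out, the ranges that crossed 0 were -0.56 to 0.27 for miR-1454, -0.54 to 1.17 for miR-1736-3p, -1.19 to 0.036 for miR-1684b-3p and -0.42 to 0.15 for miR-1552-3p. The ranges were -2.24 to -1.60 for miR-1729-5p and -2.20 to -1.52 for miR-1329-5p. The difference in the members' share turned to -0.0626 percentage points with clean reads and -0.0673 with raw reads as the denominator, and ran from 0.0412 to 0.119 with a library left out. The difference in detected members turned to 1.82 at the counted reads of the smallest library and ran from -26.0 to -21.0 with a library left out. The arm ratios kept their direction in every alternative, and with the replicate block their exact sign permutation p was 0.25 each, the smallest it allows, as it was for the number detected, while the share gave 0.5.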
